A study of Mus musculus with 16 samples.

Results

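Antisense transcripts are isoform models on the strand opposite an annotated gene, a class that TALON (the program the authors used to sort long reads into isoforms) writes beside each model. The members described here are the models of that class with at least 5 reads in at least 2 of 16 mouse brain samples, which left 2387 of 87966 antisense models and of 815498 models of any class. The members were thus chosen by their read counts, and their number is a description with no test. Each of the 2387 members is the only model of its class in its own TALON gene. The files pair these identifiers with neither the name of the gene on the other strand nor a position, so members are named here by identifier, exons and length.

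The samples were sequenced with PacBio Iso-seq, in which 1 read is meant to cover a polyadenylated transcript from end to end, whatever its length. Levels still moved with model length between sets of striatal samples, as given below. R6/2 mice, which carry a transgene of human mutant huntingtin (mHTT) exon 1 on the background B6CBA-Tg(HDexon1)62Gpb/3J and serve as a fast model of Huntington's disease, were compared with non-transgenic (NT) controls, all males of 3 months. Cortex and striatum had 4 samples of each genotype, so 8 of each region. The transgene adds a fragment of the human gene to intact mouse Htt, and its own reads were not analysed here.

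Transcription of both strands of a locus is common in mammalian genomes. Some antisense RNAs act in cis on the gene they face, through chromatin, splicing or pairing with its mRNA, and Kcnq1ot1, which silences neighbouring imprinted genes on the paternal chromosome, is a textbook case. Spliced, polyadenylated antisense RNAs are usually counted among the long non-coding RNAs, whereas many antisense RNAs of a single exon have no known role.

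Total reads ranged from 252885 to 808814 per cortical and from 317050 to 1496196 per striatal sample. The striatal samples NT 1, NT 2, R6/2 2 and R6/2 3 came as 2 files each, which were summed. The other 4 striatal samples came as 1 file and stood apart from these in their make-up: genomic-class reads (models within a gene that match no splicing pattern) made 8.71 to 12.2% against 5.30 to 6.07% of reads, and mitochondrial genes 1.22 to 2.63% against 0.368 to 0.767%. Tests of genotype in the striatum are therefore given with the number of files in the test, beside the pooled value where one is printed. The summed level of 8 markers of striatal projection neurons (such as Drd1, Drd2 and Ppp1r1b) was 1633 to 12419 CPM (counts per 1e+06 reads of the normalised library) in striatal samples and 76.1 to 375 CPM in cortical ones, as the region labels say.

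Nearly every member was a single exon. Of the 2387 members, 2371 had 1 exon, 13 had 2, 1 had 3 and 2 had 4, so single-exon forms made 99.3% (95% Wilson interval 98.9 to 99.6%, counting error only). The same reads rule gave a like share among genomic-class isoforms, with 99.2% of 3949, and among intergenic isoforms, with 96.8% of 277. Annotated (known) isoforms had 1 exon in 6.42% of 10737, and isoforms that match part of an annotated one (incomplete splice match, ISM) in 15.8% of 6949. Isoforms with new combinations of known splice sites (NIC, 1816) or with new splice sites (NNC, 889) had none, by definition. Of all antisense models, before the reads rule, 95.5% had 1 exon.

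The members were long for unspliced transcripts. Their median model length was 2058 nt with an interquartile range of 1261 to 2992 nt, against a median of 2265 nt for known, 1765 nt for genomic and 1049 nt for intergenic isoforms under the same rule. By length, 62 members were shorter than 200 nt, 362 had at least 200 and under 1000 nt, 1371 at least 1000 and under 3000 nt, and 592 had 3000 nt or more. The 3 longest had 6617, 6841 and 7766 nt, each of 1 exon, with 121, 95 and 153 reads over all samples. At the other end, 11 members are listed with a length of 1 nt and hold 957 reads together. A model of 1 nt cannot be the length of a transcript, and 73 genomic-class isoforms under the same rule were listed so too.

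**Figure D1:**
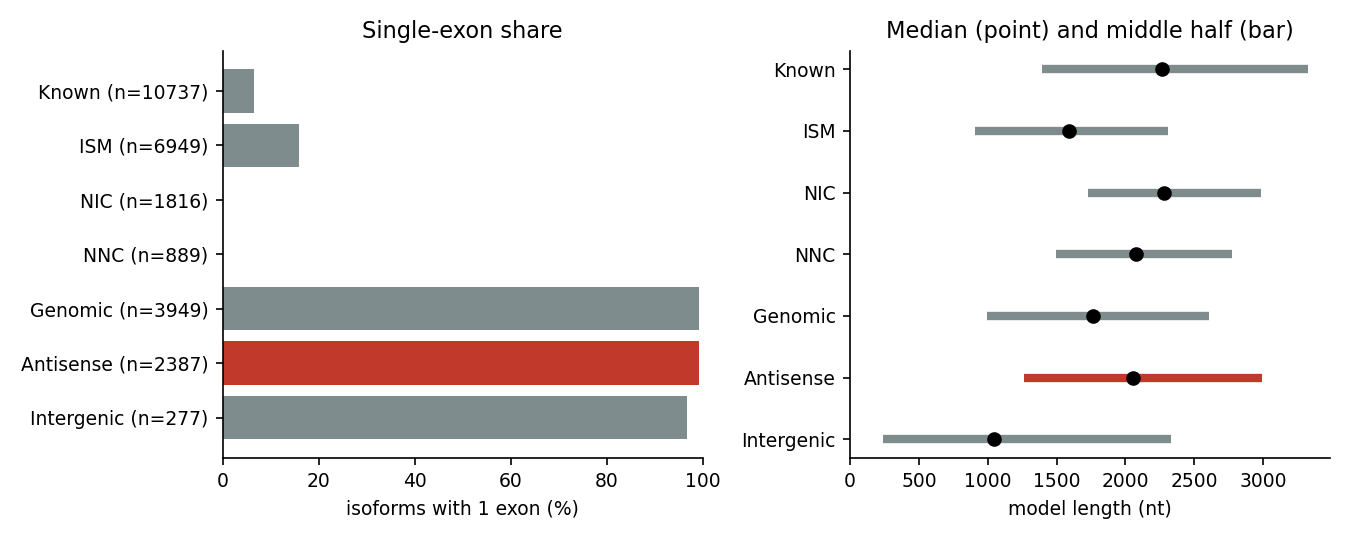
Left, percent of isoforms with 1 exon in each TALON class under the rule of at least 5 reads in at least 2 samples (n in brackets). Right, model length in nt, with the median as a point and the interquartile range as a bar. Antisense members (red) had 1 exon in 99.3% of cases and a median of 2058 nt, near the 2265 nt of known isoforms.

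The members held 284177 reads, 54.2% of all antisense reads. The rest lay in models under the rule, 41952 of which had a single read over all samples. A member had a median of 51 reads over the 16 samples (interquartile range 37 to 85), and 529 members had a read in every sample. Few members carried much of the signal: the first 10 held 24.0% and the first 100 held 45.9% of member reads. At the edge of the rule, 634 members reached 5 reads in exactly 2 samples, with a median of 33 and 12 to 62 reads in all. Just outside it, 1487 antisense models reached 5 reads in 1 sample only, with a median of 21 and 5 to 50 reads.

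The 5 members with most reads differed among themselves in how their level varied. The first, of 606 nt and 1 exon, had 21825 reads and was found at 814 to 7194 CPM in the striatum and 1078 to 2706 CPM in the cortex. It was highest in the 1-file striatal samples, with 2688 to 7194 CPM against 814 to 1645 CPM in the 2-file ones. The second had 179 nt and 14872 reads and is taken up below for its spread within genotypes. The third, of 2952 nt and 6385 reads, lay at 162 to 700 CPM in the striatum and 248 to 2676 CPM in the cortex, where Cortex NT 3 was highest. The fourth, of 3759 nt and 5649 reads, lay at 201 to 2573 CPM in the striatum and 240 to 598 CPM in the cortex. The fifth, of 782 nt and 3681 reads, was the only one of the 5 with no overlap between the regions, at 24.8 to 155 CPM in the striatum and 528 to 1039 CPM in the cortex.

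The 16 spliced members were between 581 and 3238 nt long and held 23 to 353 reads each, 1238 in all. The 4-exon member of 2459 nt had 151 reads, with 1 to 17 in each sample. The other 4-exon member, of 2074 nt, had 23 reads, and 20 of these came from Striatum NT 1, NT 2 and NT 3. The 3-exon member of 1691 nt had 35 reads and reached 9 in Striatum NT 2.

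The spliced member with most reads, TALONT000650702 (2 exons, 581 nt), was found in cortex alone. It had 16, 22, 42 and 46 reads in Cortex NT 1 to 4 and 131, 36, 33 and 27 reads in Cortex R6/2 1 to 4. All 8 striatal samples had 0 reads, at totals of 317050 to 1496196 reads. Cortex R6/2 1 was the highest sample, at 198 CPM. On the normalised scale the cortical mean of 82.2 CPM was at least 17.5-fold above the striatum, taking 3 reads in each striatal sample as the limit that a count of 0 allows. Its TALON gene held 35 further models with a read, in other classes, and the gene as a whole had 878 cortical and 0 striatal reads, of which 76.9% were spliced. It was thus also an exception in the form of its reads: over the genes of all members, reads in models of other classes made 1.56% and single-exon reads 98.9%.

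A single-exon member of 189 nt, TALONT000651581, had the same distribution. It had 28, 38, 27 and 30 reads in Cortex NT 1 to 4 and 185, 26, 57 and 23 in Cortex R6/2 1 to 4, and none in the striatum. Cortex R6/2 1 was again highest, at 279 CPM, and the cortical mean of 89.2 CPM was at least 19.0-fold above the striatal limit.

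Of all reads, the antisense class took 3.65, 4.88, 9.62 and 5.96% in Cortex NT 1 to 4 and 6.25, 5.52, 5.0 and 5.48% in Cortex R6/2 1 to 4. It took 3.40, 3.34, 6.59 and 6.77% in Striatum NT 1 to 4 and 4.16, 3.32, 3.13 and 6.05% in Striatum R6/2 1 to 4. The 2 genotypes overlapped in the cortex and in the 8 striatal samples together. The 2-file and 1-file striatal samples did not overlap, and within each of these both R6/2 samples lay below both NT samples. The share was 5.56% ± 0.516 (SD, n = 4) in R6/2 and 6.03% ± 2.58 (n = 4) in NT cortex (exact permutation test over samples, two-sided, p = 0.857). In the striatum it was 4.16% ± 1.33 in R6/2 and 5.03% ± 1.91 in NT (n = 4 each, exact permutation p = 0.486). With samples permuted only within the 1-file and the 2-file samples, the exact permutation p was 0.0556. That is the smallest that a two-sided test of 2 against 2 in each allows. The difference was -1.58 percentage points in the 1-file and -0.146 in the 2-file samples. The 2-file samples had 3.30% ± 0.117 and the 1-file samples 5.89% ± 1.20 (n = 4 each, exact permutation p = 0.0286, the smallest that 4 against 4 allows, and 0.0686 after adjustment over the 12 tests of single values). The cortical difference and the pooled striatal difference did not pass their tests. The striatal test within numbers of files could not have passed with any values, since its smallest exact permutation p is 0.0556. No conclusion for or against a striatal difference is drawn from that test. In the cortex the sign rested on Cortex NT 3: without it, R6/2 was higher by 0.734 percentage points.

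Spliced reads were rare in every sample. Antisense reads of models with more than 1 exon made 1.21 to 1.80% of antisense reads in the cortex, 1.44 to 1.68% in the 2-file striatal samples and 0.715 to 1.11% in the 1-file ones. The single-exon share was 99.2% ± 0.188 in the 1-file striatum (n = 4) and 98.6% ± 0.187 in the cortex (n = 8), with no overlap (exact permutation p = 0.00202, adjusted 0.0242). The 2-file striatum had 98.5% ± 0.109, below the cortical mean by 0.169 points, so the direction between regions depended on which striatal samples were taken. Between genotypes the share was 98.7% ± 0.0917 in R6/2 and 98.6% ± 0.260 in NT cortex, and 98.7% ± 0.447 and 98.9% ± 0.396 in striatum (n = 4 each, exact permutation p = 0.657 and 0.600, and 0.222 in striatum within numbers of files).

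Antisense reads belonged to shorter models in the 1-file striatum. The mean model length per read was 1505 to 1777 nt there, 1991 to 2078 nt in the 2-file striatum and 1655 to 2112 nt in the cortex. The mean of 1637 nt ± 121 (n = 4) in the 1-file striatum lay 291 nt under the 1928 nt ± 133 of the cortex (n = 8, exact permutation p = 0.00606, adjusted 0.0364). Reads of all classes moved the same way, with means of 1589 to 1840 nt in the 1-file and 2125 to 2197 nt in the 2-file striatum. The part of read length in the antisense result was not tested. The genotypes overlapped: mean lengths were 1915 nt ± 43.4 and 1940 nt ± 198 in R6/2 and NT cortex, and 1833 nt ± 239 and 1839 nt ± 254 in striatum (exact permutation p = 0.829 and 0.971, and 0.944 in striatum within numbers of files).

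**Figure D2:**
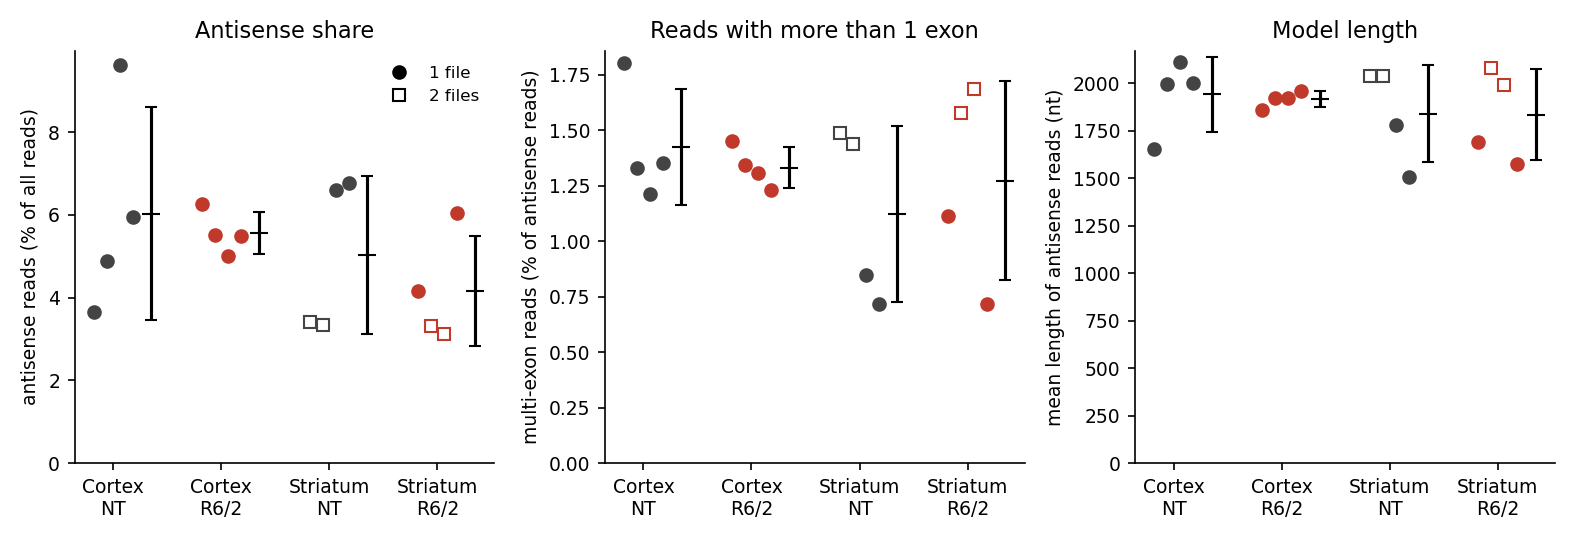
Each point is a sample (filled circles, 1 file; open squares, 2 files; red, R6/2; grey, NT), with the mean and SD of each group beside it. The panels give the antisense share of all reads in percent, the multi-exon share of antisense reads in percent and the mean model length of antisense reads in nt; the 2-file striatal samples lie at 3.13 to 3.40%, below all 1-file striatal samples.

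Few members were called between R6/2 and NT cortex. The filter on low counts left 207 of the 2387 members for the cortical test, and 1 was called at an adjusted p under 0.05 (edgeR quasi-likelihood test), 0.483% against 2.14% of all 6029 isoforms tested. At an unadjusted p under 0.05 there were 36 of 207 members, beside 985 of 6029 isoforms. The called member, TALONT000657650 (1 exon, 5229 nt), lay at 45.1, 230, 324 and 163 CPM in Cortex NT 1 to 4 and at 67.9, 37.2, 44.3 and 71.7 CPM in Cortex R6/2 1 to 4. NT 1 lay among the R6/2 samples and the other NT samples above them all. The change was a log2 fold of -1.76 (SE 0.42, adjusted p = 0.0427), from 191 CPM ± 117 to 55.3 ± 17.1 (SD, n = 4 each). The call was lost in 7 of the 8 fits that left out a sample, each but the one without NT 1, where the adjusted p was 0.000775. With upper-quartile normalization it was lost too (edgeR adjusted p = 0.0601). In all, 7 of 16 alternatives called it, with adjusted p of 0.000775 to 0.150.

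The 3 further cortical members that the naming rule gave had the smallest p among the rest and did not pass. TALONT000769106 (1 exon, 340 nt) lay at 2.25, 10.6, 23.2 and 17.6 CPM in NT and at 33.2, 28.8, 54.5 and 51.0 CPM in R6/2, with no overlap (log2 fold 1.71, SE 0.42, edgeR adjusted p = 0.0503). It was called in 8 of 16 alternatives, with adjusted p from 0.0159 by DESeq2 to 0.153 in edgeR without NT 2. TALONT000233322 (2724 nt) had 20.2 CPM ± 9.12 in NT and 46.2 ± 1.02 in R6/2 (n = 4 each, edgeR adjusted p = 0.0673). TALONT000623284 (2062 nt) had 22.8 CPM ± 4.89 in NT and 8.77 ± 1.87 in R6/2 (n = 4 each, edgeR adjusted p = 0.0673).

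Of the 6 lists of cell type markers, each summed per sample, 2 separated the genotypes in the cortex without overlap. Astrocyte markers (5 genes) stood at 1633 to 2717 CPM in NT and 996 to 1340 CPM in R6/2, and the 8 markers of striatal projection neurons at 297 to 375 and 76.1 to 98.8 CPM. Markers of cortical excitatory neurons (483 to 776 and 536 to 655 CPM), oligodendrocytes (2228 to 5210 and 2465 to 3862 CPM), microglia (293 to 356 and 225 to 366 CPM) and choroid plexus (5.30 to 771 and 16.6 to 1270 CPM) overlapped. Their part in the antisense values was not tested.

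In the striatum, more members were lower in R6/2. With the number of files as a term, 317 members could be tested and 19 were called, 18 lower and 1 higher. These make 5.99% of the members tested, beside 3.83% of all 8443 isoforms (3.23% lower and 0.592% higher). The median log2 fold of the members was -0.33, and 236 of the 317 lay below 0, where the median of all isoforms was 0.01. Other classes lay below 0 as well: the median was -0.24 over 748 genomic-class isoforms, of which 46 were called lower and 2 higher (6.42% called), -0.33 over 31 intergenic and -0.15 over 1345 ISM isoforms, and 0.07 over known ones. All 19 called members had 1 exon, and the 18 lower ones had a median length of 3031 nt against 1933 nt for the members tested. The signs were the same in the 1-file samples alone for all 19 and in the 2-file samples alone for all 18 that could be fitted there. These are the samples that gave the calls, so the like signs are a description and no separate support. The count moved with the design, for all isoforms as for members. Without the term for files edgeR called 0 of 317 members, beside 13 of 8443 isoforms (0.154%). At an unadjusted p under 0.05 there were 35 members and 585 isoforms. In the 1-file samples alone 11 of 360 members were called, beside 61 of 7293 isoforms (0.836%). In the 2-file samples alone edgeR called 0 members (60 at an unadjusted p under 0.05), beside 4 of 10281 isoforms (0.0389%). Leaving out a sample gave 5 members (without NT 3) to 32 (without NT 1).

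Among the marker lists, that of striatal projection neurons (8 genes, all found) alone separated the genotypes in the striatum, with 8234 to 12419 CPM in NT and 1633 to 2906 CPM in R6/2. Ranges overlapped for markers of astrocytes (1526 to 3326 CPM in NT and 1073 to 1552 CPM in R6/2), oligodendrocytes (9728 to 24812 and 9919 to 14996 CPM), microglia (293 to 569 and 379 to 569 CPM) and cortical excitatory neurons (96.4 to 202 and 134 to 199 CPM). Choroid plexus markers (4 genes) reached 8057 CPM in 1 NT sample, where the other NT samples had 47.7 to 261 CPM and R6/2 samples 80.8 to 279 CPM. Their part in the antisense result was not tested. In bulk tissue, fewer cells of a type and less RNA in each cannot be told apart.

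TALONT000222498 (1 exon, 3009 nt) had the largest fall in R6/2 striatum under the rule for named members. It lay at 76.1, 82.4, 173 and 273 CPM in Striatum NT 1 to 4 and at 33.9, 18.7, 20.3 and 46.1 CPM in R6/2 1 to 4. Every NT sample was above every R6/2 sample, which the rule for named members required. The log2 fold was -2.24 (SE 0.23, edgeR adjusted p = 0.000292), -2.38 in the 1-file and -2.02 in the 2-file samples. In the cortex it stood at 121 CPM ± 84.2 in NT and 73.6 ± 6.59 in R6/2 (n = 4 each, log2 fold -0.65, edgeR adjusted p = 0.425).

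TALONT000617024 (1 exon, 2231 nt) lay at 31.8, 78.9, 71.8 and 32.1 CPM in NT and at 6.52, 11.2, 17.5 and 25.2 CPM in R6/2, again with no overlap. The naming rule required this too. Its log2 fold was -1.97 (SE 0.42, edgeR adjusted p = 0.0228), and the call was lost in 5 of 8 fits that left out a sample. The member of 5229 nt that was lower in the cortex was lower here too, at 73.9, 67.5, 135 and 68.3 CPM in NT and 27.4, 28.1, 36.0 and 29.3 CPM in R6/2 (log2 fold -1.48, SE 0.27, edgeR adjusted p = 0.00881). It was the only member called in both regions. Of the 19 striatal calls, 8 could be tested in the cortex, and all 8 had the same sign there, with 1 called. Of all 207 members tested in the cortex, 125 lay below 0, so a lower level there was common among members.

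The single member called higher in R6/2 striatum was TALONT000725063 (1 exon, 3154 nt), at 7.95, 3.55, 2.76 and 28.1 CPM in NT and 30.0, 28.1, 17.5 and 37.7 CPM in R6/2. NT 4 overlapped the R6/2 samples. The log2 fold was 1.90 (SE 0.48, edgeR adjusted p = 0.0476), and the call was lost in 7 of 8 fits that left out a sample. The 4-exon member of 2459 nt, TALONT000201297, had the next smallest p and did not pass: it lay at 7.95, 7.11, 8.28 and 4.01 CPM in NT and 16.9, 15.0, 15.7 and 18.9 CPM in R6/2 striatum (log2 fold 1.13, SE 0.33, edgeR adjusted p = 0.0841). Its cortical means went the other way, with 19.7 CPM ± 7.81 in NT and 12.7 ± 4.33 in R6/2, but the filter left it out of the cortical test.

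No member was called for a different genotype effect in the 2 regions. The interaction of region and genotype was called for 0 of 354 members by edgeR and by DESeq2. In edgeR it was called for 0.0117% of all 8530 isoforms. At an unadjusted p under 0.05 edgeR had 22 members, beside 418 isoforms.

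**Figure D3:**
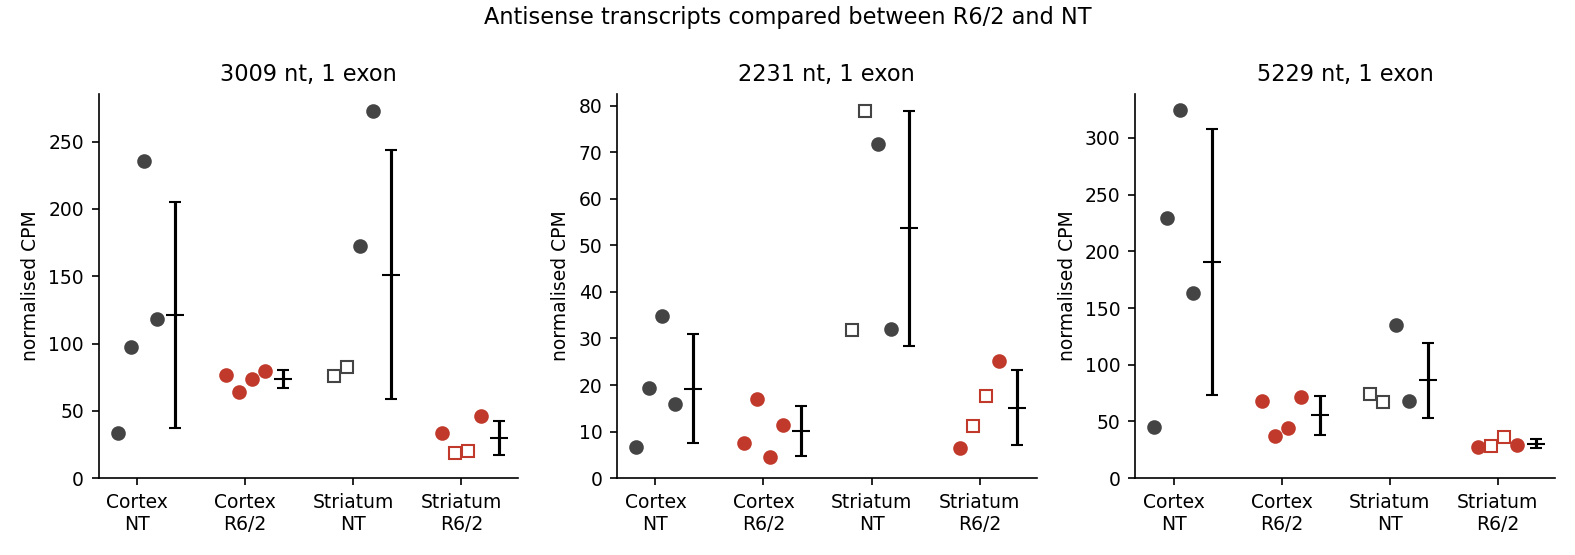
Normalised CPM of 3 single-exon antisense members (3009, 2231 and 5229 nt) in each sample, by region and genotype, with the mean and SD of each group beside the points (filled circles, 1 file; open squares, 2 files). In the striatum each R6/2 sample lies below each NT sample in all 3 panels, which the naming rule required for the members of 3009 and 2231 nt. In the cortex the groups overlap.

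Region separated more members than genotype, and its direction depended on the striatal samples. Between the 1-file striatum and the cortex, 183 of 354 members tested were called, 92 higher and 91 lower in the striatum. That is 51.7% of the members, beside 44.7% of all 8530 isoforms tested (24.0% higher and 20.7% lower). With the 2-file striatum in the same fit, 177 members were called, of which 21 were higher and 156 lower in the striatum, beside 3497 of 8530 isoforms (41.0%; 21.4% higher and 19.6% lower). The nearly even split of the first comparison thus became 21 against 156 in the second, while both used the same cortical samples. Genomic-class isoforms, at 293 higher and 139 lower in the first, had 42 against 295 in the second, and ISM isoforms went from 391 against 391 to 107 against 722. Known isoforms had 1524 higher and 452 lower in the second.

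Members that differed whichever striatal samples were used were those where all 8 striatal and all 8 cortical samples did not overlap. There were 56 (2.35%, beside 3.03% of all isoforms), of which 45 were higher in cortex and 11 in striatum, or 1.89 and 0.461% of the 2387 members, beside 1.61 and 1.41% of all 27004 isoforms under the same reads rule. The member of 3358 nt, with 1 exon, was among the highest in cortex: it lay at 340 to 1023 CPM (median 608) in the cortex and at 56.2 to 86.0 CPM (median 68.2) in the striatum. Its log2 difference, striatum against cortex, was -2.98 (SE 0.25, edgeR adjusted p = 1.59e-08) with the 1-file and -3.37 with the 2-file samples. The member of 782 nt, the fifth by reads, had a difference of -3.68 (SE 0.26, edgeR adjusted p = 1.7e-09) and -2.27.

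Among the 11 higher in striatum, the 2 with the highest mean level had 1 exon and 4298 and 3301 nt. The first lay at 29.0 to 61.1 CPM in the striatum and 5.30 to 24.8 CPM in the cortex (log2 1.75, SE 0.28, edgeR adjusted p = 3.68e-05 with 1-file and 1.72 with 2-file samples). The second lay at 16.9 to 64.2 CPM and 0 to 16 CPM. The second was also 1 of the 18 members lower in R6/2 striatum, with 55.7 CPM ± 7.16 in NT and 25.7 ± 9.24 in R6/2 (n = 4 each, edgeR adjusted p = 0.0432). A 2-exon member of 726 nt belonged to the 11 as well, at 9.23 to 44.2 CPM in the striatum and 5.66 to 9.01 CPM in the cortex.

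**Figure D4:**
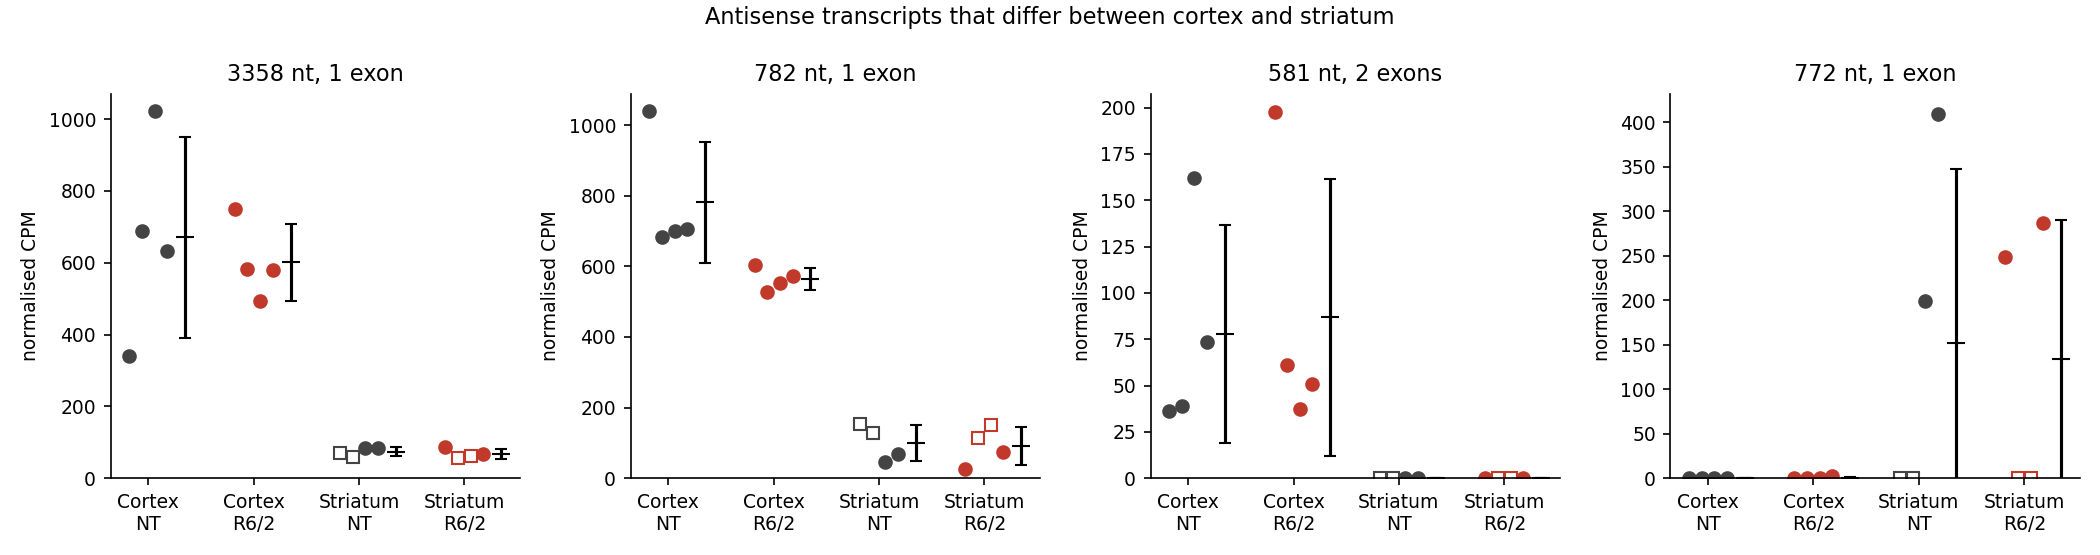
Normalised CPM of 4 antisense members in each sample (filled circles, 1 file; open squares, 2 files; red, R6/2; grey, NT), with the mean and SD of each group beside the points. The members of 3358 and 782 nt are higher in every cortical sample, the spliced member of 581 nt has 0 reads in the striatum, and the member of 772 nt is high in the 4 one-file striatal samples and at 0 or 1 read in the other 12.

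The largest differences in level by region and by number of files were the same members. TALONT000681556 (1 exon, 772 nt) had 144, 102, 191 and 137 reads in Striatum NT 3, NT 4, R6/2 1 and R6/2 4, the 1-file samples, and none in the 2-file samples. Of the 8 cortical samples, 7 had none and Cortex R6/2 4 had 1 read. Its mean of 286 CPM in the 1-file samples was at least 103-fold above the 2-file samples, taking 3 reads in each as their limit. TALONT000853480 (1 exon, 347 nt) had 241, 206, 20 and 23 reads in the same 4 samples and 0 in the other 12, which makes it at least 111-fold higher than in the 2-file striatum and at least 52.4-fold higher than in the cortex. Within the 1-file samples its 2 NT samples were far above its 2 R6/2 samples, and it was 1 of the 18 members called lower in R6/2 striatum, a call that rests on those 4 samples.

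By a rule set after these values were seen, of at least 3 reads in each 1-file striatal sample and more than 4 times the level of any of the other 12 samples, 22 members had this pattern. That is 0.922% of members, beside 0.541% of all isoforms under the reads rule. All 22 had 1 exon, with lengths of 115 to 2032 nt and a median of 508 nt, and 7 had no read in any of the other 12 samples. The most abundant, of 540 nt, had 287, 143, 562 and 356 reads in the 1-file samples and 41 in the other 12 together. The 1-file samples include both genotypes, so the pattern does not follow genotype, and number of files cannot be told apart from whatever else sets these 4 samples apart.

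Between the 2-file and the 1-file striatum, with genotype as a term, 166 of 317 members were called, 13 higher and 153 lower in the 2-file samples. These are 52.4% of the members beside 48.2% of all isoforms, where 20.9% were higher and 27.3% lower. The median log2 difference was -0.80 over the members, -1.34 over genomic-class, -1.69 over intergenic, -0.87 over ISM and 0.37 over known isoforms. Short members were lowest in the 2-file samples: the median log2 difference was -2.71 over the 46 members tested under 500 nt, -1.47 over 31 from 500 to under 1000 nt, -0.70 over 87 from 1000 to under 2000 nt, -0.52 over 68 from 2000 to under 3000 nt and -0.51 over 85 longer ones. These medians were unchanged with the 6 members at 0 in a group set to their limits. Known isoforms moved with length too, from -2.23 under 500 nt to 0.70 at 3000 nt or more. At 3000 nt or more, 601 known isoforms were called higher and 53 lower in the 2-file samples, and 4 members higher and 29 lower. The 2 members that rose most in the 2-file samples were TALONT000410799 (2412 nt), from 1.36 CPM ± 1.95 to 42.2 ± 6.69, and TALONT000260149 (3176 nt), from 3.23 ± 1.90 to 29.9 ± 10.6 (n = 4 each, edgeR adjusted p = 3.41e-05 and 0.00045). In the cortex these stood at 20.3 to 46.3 CPM and 0 to 25.4 CPM.

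At equal depth the number of detectable members moved likewise. With every sample drawn down to 252885 reads, 306 antisense models passed the rule in the 4 NT and 272 in the 4 R6/2 cortical samples, 304 in the 4 one-file and 163 in the 4 two-file striatal samples. At full depth, 1215 members passed the rule within the cortex and 1863 within the striatum. The 898 that passed in both are 73.9% of the first and 48.2% of the second. Of the isoforms of all classes, 16435 passed within the cortex and 23923 within the striatum, so the imbalance was not particular to members. Counts of all isoforms at equal depth, or in both regions, are not given here.

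A few members varied widely between samples of 1 genotype. In 7 members the highest and lowest sample of a genotype differed by 8-fold or more in both regions, counting at least 3 reads a sample as the limit. The share of all isoforms that did so is not given here, so the spread is not shown to be particular to antisense members. The second by reads, of 179 nt, lay at 48.2 and 36.5 CPM in Striatum R6/2 1 and 2 and at 2578 and 2716 CPM in R6/2 3 and 4. In the cortex the same numbers were low, with 30.2 and 18.6 CPM in R6/2 1 and 2 and 1031 and 747 CPM in R6/2 3 and 4. NT samples lay at 1636 to 4139 CPM in the striatum and 301 to 1453 CPM in the cortex. The means of R6/2 were therefore lower in both regions without a call (edgeR adjusted p = 0.669 in striatum and 0.648 in cortex).

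The member of 415 nt was low in NT 1 and R6/2 3 of both regions: 6.82 and 7.39 CPM in the striatum and 15.8 and 9.09 CPM in the cortex, where all other samples had 52.6 to 201 CPM. The member of 1325 nt was low in the same numbers, with 0 and 1 read in the striatum and 1 read each in the cortex, against 9 to 38 reads in the others. The member of 201 nt was low in NT 1 and in R6/2 1, 3 and 4 of both regions, at 0 to 15.8 CPM, and at 88.0 to 365 CPM in the other 8 samples. Over the 9 cases of a member and genotype, the lowest sample had the same number in both regions in 6. The number differed for R6/2 in the member of 201 nt and for NT in those of 2795 and 1243 nt. The labels do not say whether a number marks 1 mouse. As a description over 234 members, in deviations from the group means, same-numbered R6/2 samples of the 2 regions correlated at 0.147 to 0.473, and each of the 4 correlated best with its own number. Same-numbered NT samples correlated at -0.117 to 0.224, with 2 of 4 best with their own. Over 7220 isoforms of all classes the R6/2 pairs lay at -0.047 to 0.443 (3 of 4) and the NT pairs at -0.256 to 0.283 (2 of 4).

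**Figure D5:**
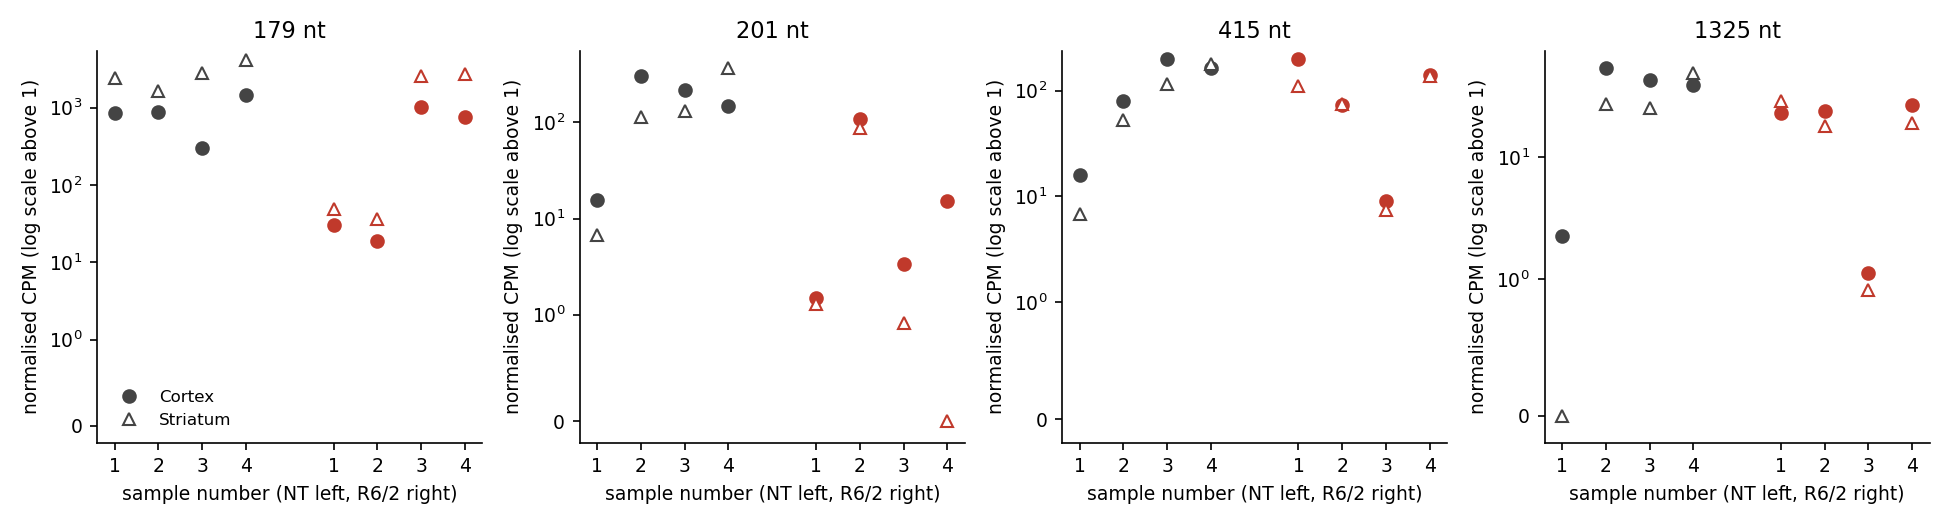
Normalised CPM of 4 single-exon antisense members (179, 201, 415 and 1325 nt) by sample number, NT on the left and R6/2 on the right of each panel (circles, cortex; open triangles, striatum; the axis is logarithmic above 1 CPM and linear below). Circles and triangles of the same number are low together, as in R6/2 1 and 2 for the member of 179 nt and in NT 1 and R6/2 3 for the members of 415 and 1325 nt. These 4 were picked from 7 members after their values were seen.

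Annotated antisense genes, whose isoforms TALON lists as known and not in its antisense class, gave a contrast in form. GENCODE M21 calls 509 of the genes with known isoforms in these files antisense, a list taken after the members were described. Of their 640 isoforms, 47 passed the reads rule, with a median of 2 exons and 1181 nt, and 16 of them (34.0%) had 1 exon, against 99.3% of the members. All 47 are of the known class, where 6.42% of the 10737 isoforms under the same rule had 1 exon. The 47 held 3841 reads, where the members held 284177. Only 2 were tested between genotypes in cortical and 6 in striatal samples, where edgeR called 0 (1 each at an unadjusted p under 0.05). Kcnq1ot1 had 6 to 21 reads in Cortex NT and 29 to 44 in Cortex R6/2 samples, with no overlap in reads (log2 fold 1.05, SE 0.29, edgeR adjusted p = 0.0774). In the striatum its log2 fold was 0.06 (SE 0.30, edgeR adjusted p = 0.963).

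Known isoforms of genes named as opposite-strand transcripts (symbols in os, and a few such as Zfas1) were read the same way. Of 157 isoforms, 30 passed the reads rule, and of the 118 that GENCODE does not call protein coding, 14 passed and 2 of these had 1 exon. In the striatum 6 of the 118 could be tested and 1 rose in R6/2, Zfas1, a spliced host of small nucleolar RNAs (5 exons, log2 fold 1.23, SE 0.29, edgeR adjusted p = 0.0335). Of all 8443 isoforms tested there, 0.592% were called higher. Zfas1 was put on the list by name, with earlier results of these data known, so its call is a description. In the cortex 4 could be tested and edgeR called 0 (2 at an unadjusted p under 0.05). Between the 1-file striatum and the cortex 3 of 6 were called, beside 44.7% of all 8530 isoforms. All 3 were higher in the striatum: Zfas1 (log2 1.55), Epb41l4aos (2.11) and Sp3os (1.06). GENCODE types Sp3os as antisense, Zfas1 as a processed transcript and Epb41l4aos as a long intergenic non-coding RNA. Zfas1 and Epb41l4aos were also lower in the 2-file than in the 1-file striatum, by log2 differences of -2.01 and -2.58.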

How the data were processed

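Counts are the authors' deposited values: reads per isoform and sample from TALON before its transcript filter, not normalized. Per the study's methods, exonuclease-treated RNA was amplified and sequenced with PacBio, and full-length reads were mapped to mm10 with minimap2 (2.17-r941, per the labels), corrected with TranscriptClean and assigned with TALON. Exon numbers and lengths come from the same files. The 20 files list the same 815498 isoforms, and the 2 files of each of 4 striatal samples were summed. Their labels do not say whether these were separate runs.

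Members and lists were chosen with earlier results of these data known. A member has the antisense class and at least 5 reads in at least 2 samples. Isoforms of all classes were fitted together with edgeR 4.0.16 (R 4.3.3; TMM, filterByExpr with its minimum count of 10, quasi-likelihood test, Benjamini-Hochberg adjustment over all isoforms tested, threshold 0.05). Striatal genotype was fitted with number of files as a term, region over all 16 samples with the striatum split by files. The standard error (SE) of an edgeR log2 fold is its size over the square root of the F statistic. CPM are counts over normalized library sizes, computed here. For single values, samples were permuted exactly (two-sided), with adjustment over 12 tests. Named members: per comparison up to 2 in each direction, of largest log2 fold among those called whose CPM did not overlap and whose higher group averaged 20 reads or more, otherwise of smallest p; also the 5 with most reads, 3 with most exons and 3 longest. Other members were named after their values were seen. Gene types are from GENCODE M21, which holds 18869 of 18939 known genes. On simulated data, changes of log2 2 were found in 88 to 98% and of log2 1 in 12 to 32% of cases. There every isoform had the same dispersion and the changed ones came from all classes, so these are not rates for members. The labels name samples as replicates and not their animals, so p-values measure the spread between these samples. Alternatives covered scaling, filters, DESeq2 1.42.0, files, single samples left out and a replicate block. Totals per sample were 252885 to 1496196 reads. Intervals and limits (3 reads for a count of 0) cover counting error only, since PCR copies are not independent molecules.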

Additional observations from a re-analysis of the deposited data

Results flagged for a closer look

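Over 68 groups of 4 samples (the 3 single values and 14 named members, in 4 groups each), 7 had a sample far from the other 3 by Dixon's test, where chance gives about 1 in 20. TALONT000650702 was at 198 CPM in Cortex R6/2 1 and at 37.5 to 60.9 CPM in the other R6/2 samples. TALONT000651581 was at 279 CPM in the same sample, against 43.4 to 64.8 CPM. TALONT000657650 was at 135 CPM in Striatum NT 3, against 67.5 to 73.9 CPM. TALONT000233322 was at 32.1 CPM in Striatum NT 4, against 2.76 to 5.68 CPM. The other 3 rest on 1 or 2 reads where the remaining samples of the group had none: TALONT000623284 at 2.76 CPM in Striatum NT 3 and 2.61 CPM in Striatum R6/2 1, and TALONT000681556 at 1.89 CPM in Cortex R6/2 4.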

How the results depend on the processing

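Depth limits these results first: the number of members was 10184 at 2 reads, 776 at 10 and 246 at 20 reads in at least 2 samples, 3874 in 1 and 1374 in 4 samples, and 699 with samples drawn down to equal depth, while the single-exon share moved to 98.9% at 2, 99.6% at 10 and 99.6% at 20 reads. Cortical genotype calls (1) were 2 with RLE factors, 5 with DESeq2, 4 with the looser reads filter, 4 with no filter, 2 with library sizes of known, ISM, NIC and NNC reads, 2 with the isoforms of a gene summed, and 0 to 10 leaving out a sample (10 without NT 1; 2 without NT 2, NT 3 or R6/2 2; 0 without R6/2 1, 3 or 4). Striatal genotype calls (19) were 12 with RLE factors, 42 with the looser filter, 12 with the first file only, 11 in 1-file samples, 0 in 2-file samples, 0 without the term for files, and 5 to 32 leaving out a sample (32 without NT 1, 10 without NT 2, 5 without NT 3, 7 without R6/2 1 or 4, 11 without R6/2 2 and 10 without R6/2 3). Region calls (183) were 640 with the looser filter, 312 with none, and 165 to 251 leaving out a sample. File calls (166) were 529 with the looser filter, 81 with the first file only, and 168 to 223 leaving out a sample. Interaction calls were 0 in every setting run. With the looser filter, 4 of 1215 members were called in the cortex, beside 135 of 16435 isoforms. In the striatum these were 42 of 1863 and 452 of 23923. By region they were 640 of 2387 and 6844 of 27004, and by files 529 of 1863 and 7269 of 23923. With the first file only, 12 of 139 members were called in the striatum, beside 163 of 5227 isoforms. By files these were 81 of 139 and 2383 of 5227. Without Cortex NT 1 they were 10 of 274 and 186 of 6765 in the cortex.

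Numbers shared by NT and R6/2 samples did not pair them: same-numbered cortical samples correlated at -0.098 to 0.189 in their deviations from the group means, and 2 of 4 correlated best with their own number. Same-numbered striatal samples correlated at -0.626 to 0.719, and 1 of 4 correlated best with its own number. Each striatal group mixes 1-file and 2-file samples. The part of this in the correlations, here and between regions, was not tested. Between regions, same-numbered R6/2 samples correlated above 0.1 in all 4 pairs over the members but not over all isoforms; NT samples did so over neither. With a replicate block, 10 striatal members were called in place of 19, 1 in the cortex and 174 between regions (69 higher and 105 lower in the striatum). The cortical call was then another member, TALONT000305308 (adjusted p = 0.0388, 0.159 without the block), while TALONT000657650 lost its call (0.140). With upper-quartile normalization the 1 cortical call was TALONT000769106 (0.0423), which makes up the 8 gained calls below.

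Of the single values, the antisense share between the 1-file striatum and the cortex (0.097 points) turned to -1.20 with all 8 and -2.50 with the 2-file striatal samples, and ran from -0.209 to 0.675 leaving out a sample; in the cortex the genotype difference ran from -1.26 to 0.734. The lower share in 2-file samples ran from -3.17 to -2.30 points leaving out a sample, where 3 against 4 cannot go below p = 0.0286 and those without a 2-file sample gave an exact permutation p of 0.0571. The single-exon share in the 1-file striatum against the cortex (0.529 points) was 0.180 with all 8 and -0.169 with the 2-file samples, its file difference lost its p among members alone (-0.144), and its cortical genotype difference was -0.0457 among members and -0.0343 to 0.163 leaving out a sample. Mean length against the cortex (-291 nt) was -91.6 nt with all 8 and 108 nt with the 2-file samples; its genotype difference was 22.4 nt among members and -120 to 32.0 nt leaving out a sample in the cortex, and 4.82 nt with the first file and -117 to 80.5 nt leaving out a sample in the striatum. TALONT000681556 and TALONT000853480, higher in the 1-file striatum than in the cortex, were at -0.82 and -1.09 (log2) with the 2-file samples, where both are at 0 or 1 read. Apart from these, named members kept their direction in every other of the 314 settings run; 33 lost and 8 gained a call. The cause of the changes was not tested.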

Other observations

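The genes of the members held 879 further models of other classes: 627 genomic, 37 ISM, 42 NIC and 173 NNC, with 3101, 524, 161 and 715 reads. Of these, 22 reached 5 reads in 2 samples, 10 of them with more than 1 exon. In the 4 samples of 2 files, the second file had the higher antisense share each time, 3.24 to 3.49% against 2.97 to 3.30%. The levels of the members in the 2 files of a sample correlated at 0.605 to 0.775 (Pearson's r of log2(CPM + 1) over 2387 members of 1 sample, given as a description), and 1454 to 1714 members were read in both files.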
